A study of Homo sapiens with 6 samples.

Results

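The 10 genes described here code for leukocyte integrin subunits and for intercellular adhesion molecules (ICAMs) that integrins bind. They were chosen by symbol, as ITGAL, ITGAM, ITGAX, ITGB2, ITGA4, ITGB1, ITGB7, ITGAE, ICAM1 and ICAM3, and all 10 of 10 were found, of 36601 genes in the count table. RNA was sequenced from NK92 cells (NK-92 in the labels), an IL-2-dependent human line from a natural killer (NK) cell lymphoma. The cells stably expressed either a control hairpin (shCtrl) or a hairpin that knocks down miR155HG (shmiR155HG), the long non-coding host transcript of the microRNA miR-155, with 3 libraries in each of the 2 groups. All 6 libraries came from cells given both IL-2, at 1000 U/mL, and IL-12, at 10 ng/mL, over 12 h, so untreated cells and the response to the cytokines are not part of the comparison. Each group is 1 shRNA line, and the sources used here do not say whether it came from more than 1 transduction or clone. The labels do not say that replicates were separate cultures, so p-values measure the spread between these libraries, which may be technical. The comparison asks which adhesion genes differed in level when miR155HG was knocked down.

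Libraries held between 33454786 and 39157264 counts, and 12263 genes passed the filter of more than 1 CPM (counts scaled to a common library size) in at least 2 libraries. The shRNA target, MIR155HG, had 73, 67 and 62 counts in shCtrl replicates 1 to 3 and 28, 19 and 10 counts in shmiR155HG replicates 1 to 3, a log2 fold change of -1.78 ± 0.43 (SE), at an adjusted p of 0.0045. Of the 10 NK cell markers, 9 passed the filter. The summed level of all 10 was 4189 to 4199 CPM in shCtrl and 3812 to 3954 CPM in shmiR155HG libraries. CD7 was the marker that did not pass. Of these markers, 3 rose (IL2RB, TBX21 and EOMES) and 2 fell (PRF1 and GZMB), and without GZMB, which went from 1195 to 542.9 CPM, the sum was 2949 to 3034 CPM in shCtrl and 3301 to 3383 CPM in shmiR155HG libraries. Among markers of other cells, the T cell sum (190.9 to 213.2 CPM over all libraries) came from TRAC and TRBC1, with CD8B at 0, and the myeloid sum did not exceed 5.645 CPM, with CD163 at 0. The B cell sum was 229.4 to 264.6 CPM in shCtrl and 341.0 to 344.2 CPM in shmiR155HG libraries. It came from PAX5, while MS4A1 was at 0 in all 3 shmiR155HG libraries. Of 26 replication-dependent histone genes, whose mRNAs mostly lack a poly(A) tail, 14 rose and 0 fell. The part of these differences in the results below was not tested.

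Integrins are heterodimers of an α and a β subunit that hold a cell to other cells or to matrix, and each α subunit reaches the surface only with a β partner. On leukocytes, β2 (ITGB2, CD18) pairs with αL (ITGAL) to form LFA-1, with αM (ITGAM) to form Mac-1, with αX (ITGAX) and with αD (ITGAD), while α4 (ITGA4) pairs with β1 (ITGB1) or β7 (ITGB7), and αE (ITGAE) with β7. NK cells use LFA-1 to grip target cells through ICAM-1, ICAM-2 and ICAM-3 at the lytic synapse, α4β1 to bind VCAM-1 and fibronectin, α4β7 to bind MAdCAM-1 in gut vessels, and αEβ7 to bind E-cadherin on epithelium.

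Since the knocked-down transcript is the host of miR-155, the mature microRNA is shown first with its seed in capitals (bases 2 to 8, from RefSeq, GRCh38.p14, chr21:25573983-25574006, plus strand).
hsa-miR-155-5p: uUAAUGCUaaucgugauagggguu
Of the 10 genes, ITGA4 was the 1 gene with a match to this seed, AGCATTA, in the 3′UTR of its canonical transcript (GENCODE release 44). The match shown lies at positions 2360 to 2366 of 3413 bases of 3′UTR and is given with its flanks, the match in capitals.
ITGA4: agagcaatggAGCATTActgagttcct
Among all 18916 genes with a 3′UTR, 2055 (10.9%) held this match at least once. A match is a run of letters and not a shown site, and the level of ITGA4 is given below. The gene of miR-155 is not in the count table, so the level of the mature microRNA was not measured here.

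The RefSeq table held promoters for ITGAM, ITGB7, ITGB1, ITGA4, ITGAE, ICAM1 and ICAM3. The 250 bases before the start are shown for the 3 genes of these that passed the test (ITGAM, ITGB7 and ITGB1) and for ICAM1, 5′ to 3′ on the gene's strand (GRCh38.p14). ITGAM lies at chr16:31259725-31259974 (plus), ITGB7 at chr12:53207252-53207501 (minus), ITGB1 at chr10:32958231-32958480 (minus) and ICAM1 at chr19:10270870-10271119 (plus). ITGB1 had another entry further into the gene, which is not shown.
ITGAM: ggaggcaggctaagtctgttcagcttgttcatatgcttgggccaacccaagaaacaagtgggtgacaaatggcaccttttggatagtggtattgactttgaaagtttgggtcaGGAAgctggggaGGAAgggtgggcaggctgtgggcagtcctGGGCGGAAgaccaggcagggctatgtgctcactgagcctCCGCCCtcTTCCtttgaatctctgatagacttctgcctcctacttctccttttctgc
ITGB7: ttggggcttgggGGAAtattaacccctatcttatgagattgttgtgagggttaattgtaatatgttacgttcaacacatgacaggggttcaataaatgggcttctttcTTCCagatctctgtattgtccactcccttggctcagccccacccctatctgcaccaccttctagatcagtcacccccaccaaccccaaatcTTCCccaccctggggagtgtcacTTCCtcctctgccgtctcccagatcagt
ITGB1: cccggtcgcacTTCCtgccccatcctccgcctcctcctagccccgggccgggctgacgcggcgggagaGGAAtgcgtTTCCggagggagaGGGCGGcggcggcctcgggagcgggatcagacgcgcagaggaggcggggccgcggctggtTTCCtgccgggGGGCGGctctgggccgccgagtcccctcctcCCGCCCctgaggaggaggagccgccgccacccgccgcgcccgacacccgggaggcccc
ICAM1: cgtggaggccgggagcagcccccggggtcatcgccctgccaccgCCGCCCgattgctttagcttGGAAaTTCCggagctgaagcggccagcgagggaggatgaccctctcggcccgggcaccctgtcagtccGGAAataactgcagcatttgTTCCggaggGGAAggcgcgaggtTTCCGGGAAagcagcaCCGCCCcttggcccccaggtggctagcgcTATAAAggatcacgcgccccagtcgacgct
Capitals mark matches, on either strand and with overlaps allowed, to the STAT-type palindrome TTCNNNGAA, the RUNX-type TGTGGT, the GC box GGGCGG, the TATA-type TATAAA and the ETS core GGAA. ICAM1 held 1 match to TTCNNNGAA, 2 to GGGCGG, 1 to TATAAA and 7 to GGAA. Of the promoters not shown, that of ITGAE also held 1 match to TTCNNNGAA, and those of ITGA4 and ICAM3 held 0. ITGB7 held 4 matches to GGAA and 0 to the other motifs, while ITGAM held 2 GGGCGG and 4 GGAA, and ITGB1 3 GGGCGG and 4 GGAA. Over 35116 promoters of the same length, 6.57% held TTCNNNGAA, 11% TGTGGT, 42.6% GGGCGG, 10.7% TATAAA and 92.7% GGAA. These are counts of letters, and binding was not measured.

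Among the 10 genes, all of which passed the filter, 4 were lower in shmiR155HG cells (ITGAM, ITGAX, ITGB2 and ITGB7), 1 was higher (ITGB1) and 5 did not pass edgeR's quasi-likelihood test (threshold 0.05 on the adjusted p). Of all genes tested, 8.02% were lower and 7.26% higher by this test. The median log2 fold change was -0.16 over the 10 genes and 0.00 over all genes. The median of the 10 lies between ITGB2 (-0.23) and ITGAL (-0.09), and it counts ICAM3 at -0.41. Without shmiR155HG replicate 3, ICAM3 was at 0.11 (below). With ICAM3 at that value, the 10 would have ITGAL and ITGA4 (0.08) in the middle. By edgeR's exact test and the study's rule (P under 0.01 and a fold change over 1.2), 3 of the 10 were lower (ITGAM, ITGAX and ITGB7) and 0 higher, where 3.8% of all genes were lower and 4.49% higher. The 3 shmiR155HG libraries lay wholly below the shCtrl libraries for ITGAX, ITGB2 and ITGB7, and wholly above them for ITGA4, ITGB1, ITGAE and ICAM1. Over all genes, 15.6% lay wholly below and 15.2% wholly above. Since RNA came from whole cultures, fewer cells with a transcript and less of it per cell cannot be told apart.

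**Figure D1:**
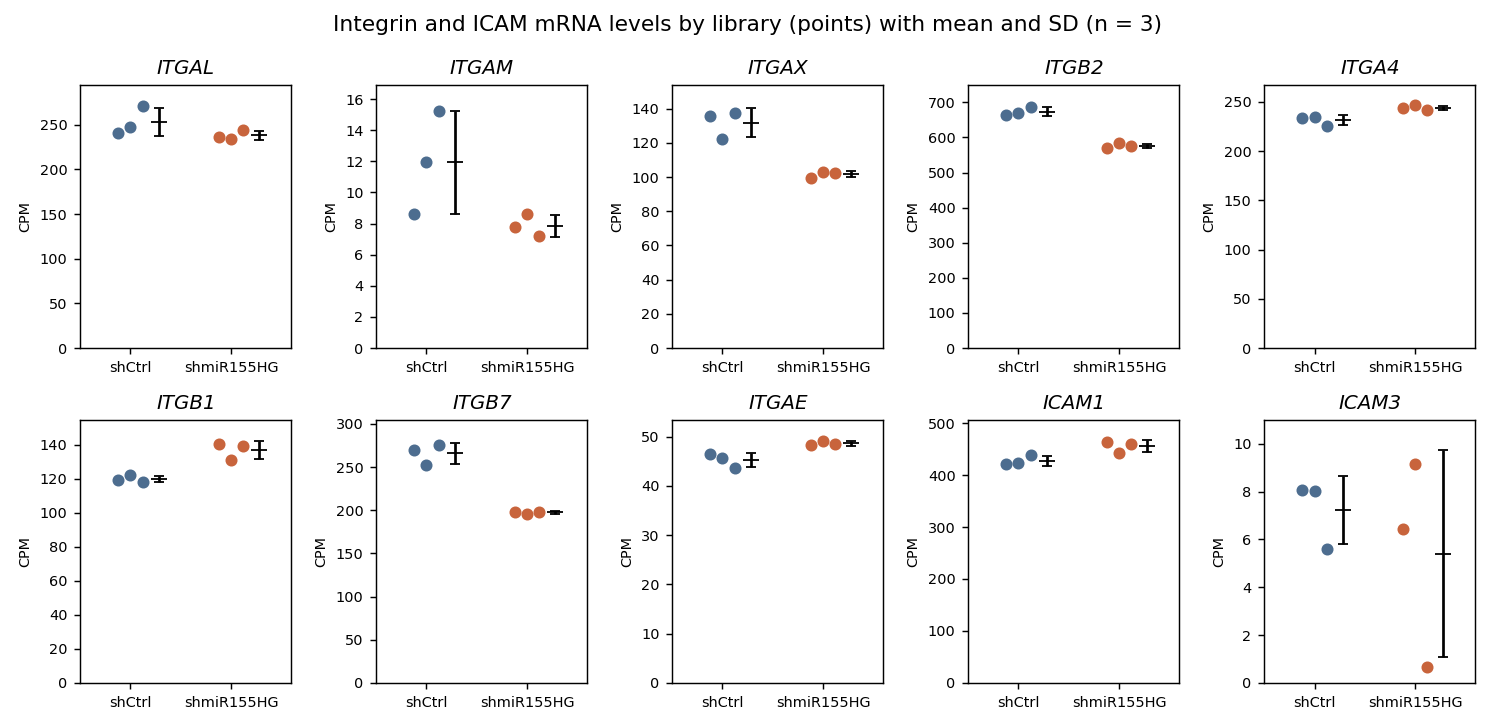
Each panel plots the normalised level (CPM, axis from 0) of 1 gene in the 3 shCtrl and 3 shmiR155HG libraries as points, with the group mean and SD (n = 3) beside them. ITGAX, ITGB2 and ITGB7 libraries separate downwards and ITGB1 upwards, while ICAM3 has 1 shmiR155HG library at 0.6578 CPM.

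Per kilobase of the canonical transcript, the levels in shCtrl cells were highest for ITGB2 and lowest for ITGAM. ITGB2 stood at 240 CPM per kb (range 236 to 245), followed by ICAM1 at 144, ITGB7 at 94.8, ITGAL at 49.3, ITGA4 at 34.1, ITGB1 at 32.1, ITGAX at 28.3, ITGAE at 11.9, ICAM3 at 4.17 and ITGAM at 2.53 CPM per kb. ITGB2 ranked 158 and ICAM1 294 by mean CPM among the 12263 genes, whereas ITGAM ranked 8804 and ICAM3 9434. Of neighbours in this order, only ICAM3 (3.22 to 4.65) and ITGAM (1.82 to 3.23) had overlapping library ranges in shCtrl cells. In shmiR155HG cells, ITGB1 (36.6 CPM per kb, 35.0 to 37.6) and ITGA4 (36.0, 35.7 to 36.3) also overlapped. These levels rest on 1 transcript length per gene.

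The β2 subunit and its αX partner fell together with the low-level αM, while αL did not pass the test. ITGB2 (chr21:44885953-44931989, minus strand), the shared β chain without which no β2 integrin is displayed, had 663.0, 668.9 and 688.0 CPM in shCtrl and 568.9, 583.0 and 574.9 CPM in shmiR155HG replicates 1 to 3. The groups did not overlap, and the mean went from 673.3 ± 13.1 to 575.6 ± 7.04 CPM (SD, n = 3), and the level fell by 14.5%. The log2 fold change was -0.23 ± 0.03 (SE), at an edgeR adjusted p of 6.07e-06. A fold this small did not meet the study's fold limit. The antisense gene ITGB2-AS1 lies opposite ITGB2 but shares 0 exonic bases with it, and it had 414, 385 and 390 counts in shCtrl and 331, 313 and 260 in shmiR155HG libraries.

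ITGAX (chr16:31355134-31382999, plus strand), the αX chain CD11c of a complement and fibrinogen receptor, had 135.8, 122.1 and 137.7 CPM in shCtrl and 99.52, 103.1 and 102.4 CPM in shmiR155HG libraries. Every shmiR155HG library was below every shCtrl library, with means of 131.9 ± 8.54 and 101.7 ± 1.89 CPM (SD, n = 3). This was a log2 fold change of -0.38 ± 0.05 (SE), at an edgeR adjusted p of 3.99e-06. The level fell by 22.9%.

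ITGAM (chr16:31259967-31332892, plus strand), the αM chain CD11b of Mac-1, was a low-level gene, with 335, 435 and 594 counts in shCtrl and 298, 328 and 241 in shmiR155HG libraries. In CPM these were 8.611, 11.93 and 15.24 against 7.766, 8.617 and 7.206. The groups overlapped, since shCtrl replicate 1 lay just under shmiR155HG replicate 2, and the shCtrl libraries spread widely (SD 3.32 CPM around 11.93). The log2 fold change was -0.60 ± 0.17 (SE), at an edgeR adjusted p of 0.0161. The call was lost without any 1 of 4 libraries, at an adjusted p of 0.0583 without shCtrl replicate 2, 0.181 without shCtrl replicate 3, 0.062 without shmiR155HG replicate 1 and 0.0877 without shmiR155HG replicate 3. Without shCtrl replicate 3 the log2 fold change was -0.38.

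ITGAL (chr16:30472658-30523567, plus strand), the αL chain CD11a of LFA-1, had 240.3, 247.6 and 270.7 CPM in shCtrl and 235.8, 233.9 and 244.1 CPM in shmiR155HG libraries. The groups overlapped. The log2 fold change of -0.09 ± 0.04 (SE) gave an adjusted p of 0.168 in edgeR, with a 95% interval from -0.17 to -0.00. After correction for GC content, it was -0.12 with an adjusted p of 0.0391.

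The genes of αM, αX and αD follow each other on chromosome 16, with 22.2 kb between ITGAM and ITGAX and 10.3 kb between ITGAX and ITGAD (chr16:31393335-31426505), and ITGAL lies 736 kb before ITGAM. ITGAD, which codes for the αD chain, was measured at 165.7 ± 5.10 CPM in shCtrl and 175.7 ± 3.73 CPM in shmiR155HG cells (SD, n = 3), with a log2 fold change of 0.08 ± 0.04 (SE), at an adjusted p of 0.18. ITGAX had an adjusted p under the threshold and its neighbour did not, and the difference between the 2 fold changes was not tested. Taking the 4 α chains per kilobase and by library, ITGAX made up 23.9%, 22.1% and 23.1% of their sum in shCtrl and 18.7%, 19.1% and 19.0% in shmiR155HG cells. The share of ITGAD was 33.1% to 36.1% and 38.4% to 39.9%, and that of ITGAL 38.5% to 41.3% and 39.4% to 41.2%. The groups did not overlap for ITGAX and ITGAD and overlapped for ITGAL. ITGAM was at most 2.53% of the sum. These shares were chosen after the values were seen and are a description.

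Of the integrins outside the β2 family, β7 fell and β1 rose, while the α chains α4 and αE did not pass the test. ITGB7 (chr12:53191323-53207282, minus strand), the β chain of the gut-homing α4β7 and of αEβ7, had 269.4, 252.5 and 276.1 CPM in shCtrl and 198.5, 195.2 and 198.5 CPM in shmiR155HG libraries. All shmiR155HG libraries were lower, with means of 266.0 ± 12.2 and 197.4 ± 1.92 CPM (SD, n = 3). The log2 fold change was -0.43 ± 0.04 (SE), at an edgeR adjusted p of 5.51e-09. The level fell by 25.8%, and the call was kept under all 18 alternatives. ITGB7 shares 1469 exonic bases with ZNF740 on the other strand, whose log2 fold change was 0.03. Whether the counting used strand is not given in the sources used here, so reads of these shared bases cannot be told apart. The same limit holds for ITGA4 and ICAM1 and their antisense genes (below).

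ITGB1 (chr10:32887273-33005792, minus strand), the β chain of α4β1 and of many matrix receptors, had 119.4, 122.0 and 118.0 CPM in shCtrl and 140.4, 130.8 and 139.1 CPM in shmiR155HG libraries. All shmiR155HG libraries were higher, with means of 119.8 ± 2.02 and 136.8 ± 5.19 CPM (SD, n = 3). The log2 fold change was 0.19 ± 0.05 (SE), at an edgeR adjusted p of 0.00419, 14.1% higher. Like that of ITGB2, this change was too small for the study's fold limit.

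ITGA4 (chr2:181457202-181538940, plus strand), the α4 chain, which carries a seed match (above), had 233.9, 234.4 and 225.5 CPM in shCtrl and 243.8, 246.4 and 241.9 CPM in shmiR155HG libraries. The groups did not overlap, and the log2 fold change was 0.08 ± 0.04 (SE, 95% interval 0.00 to 0.15, adjusted p = 0.17 in edgeR). With the GC correction it was 0.13 at an adjusted p of 0.0091. ITGA4 shares 1573 exonic bases with CERKL on the other strand, which had 7 to 15 counts per library.

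ITGAE (chr17:3714628-3801188, minus strand), the αE chain CD103 of epithelial residency, had 46.5, 45.62 and 43.65 CPM in shCtrl and 48.21, 49.21 and 48.47 CPM in shmiR155HG libraries. The groups did not overlap, although the log2 fold change of 0.10 ± 0.07 (SE) gave an adjusted p of 0.338 in edgeR. With the GC correction it was 0.08, at an adjusted p of 0.511.

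**Figure D2:**
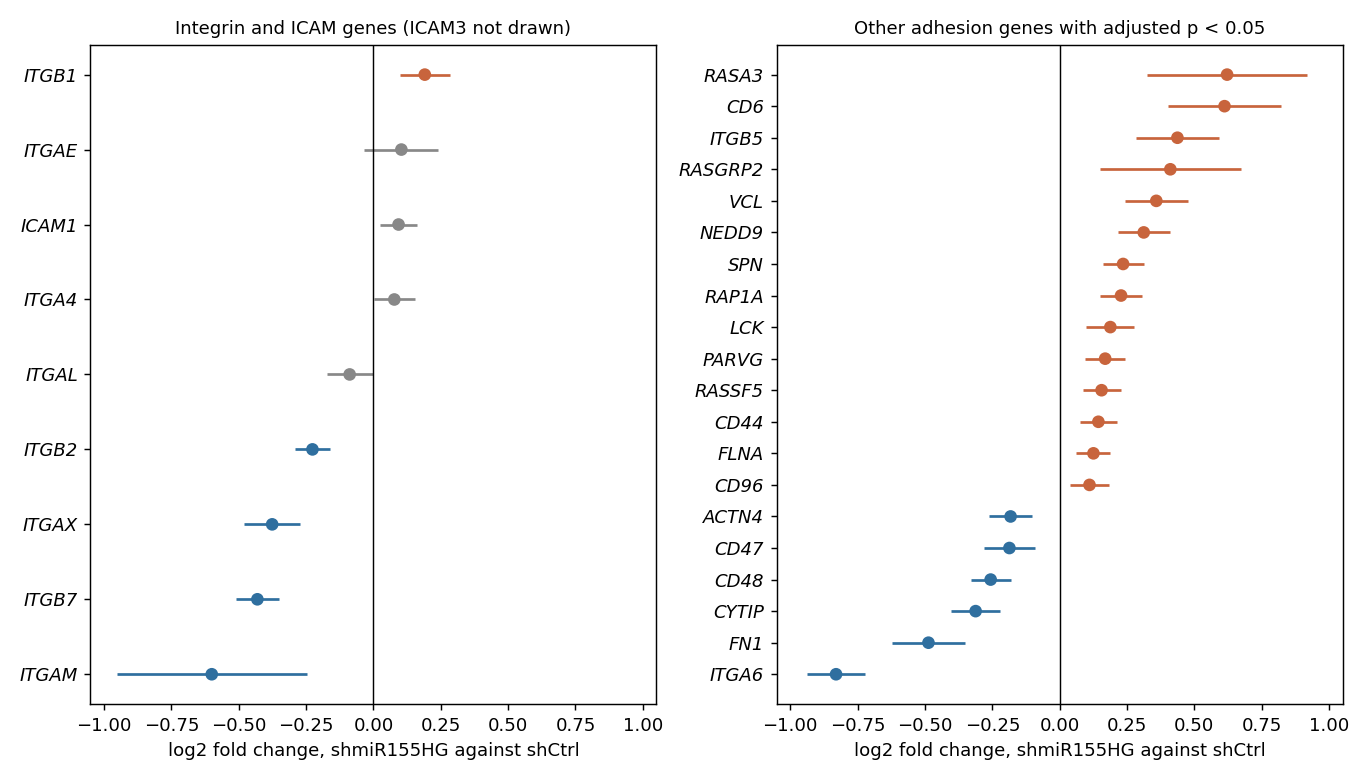
The left panel plots the log2 fold change (shmiR155HG against shCtrl) and 95% interval of 9 of the 10 genes, and the right panel the 20 other adhesion genes that passed the test, with red for higher, blue for lower and grey for not passing. ICAM3 is not drawn because its interval, which starts at -2.82, exceeds the axis.

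Within each library, the ratio of 2 subunit mRNAs does not depend on the scaling of that library. The ratio per kilobase of ITGA4 to ITGB7 was 0.359, 0.384 and 0.338 in shCtrl and 0.508, 0.522 and 0.504 in shmiR155HG libraries. That of ITGAE to ITGB7 was 0.127, 0.133 and 0.117 against 0.179, 0.186 and 0.18. Both ratios were higher in 3 of 3 shmiR155HG libraries, with log2 differences of 0.51 ± 0.06 and 0.53 ± 0.06 (SE). The ratio of ITGA4 to ITGB1 went the other way, from 1.06 ± 0.0138 to 0.984 ± 0.0462 (SD, n = 3). The ratio of ITGB7 to ITGB1, the β chains that share α4, went from 2.96 ± 0.184 to 1.92 ± 0.0556, a log2 difference of -0.62 ± 0.06 (SE). It was added after the data were seen. The 3 ratios with ITGB7 follow from the fold changes of single genes given above. They share the fall of ITGB7 and are not separate evidence.

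In the β2 family, the ratio of ITGAL to ITGB2 went from 0.198, 0.203 and 0.215 to 0.227, 0.22 and 0.232, while that of ITGAX to ITGB2 went from 0.123, 0.11 and 0.121 to 0.105, 0.106 and 0.107. The log2 differences were 0.14 ± 0.04 and -0.15 ± 0.05 (SE), and the groups did not overlap in either. The ratio of ITGAM to ITGB2 overlapped between groups, at 0.0105 ± 0.00273 and 0.00812 ± 0.000668 (SD, n = 3). By the two-sided exact permutation test, 6 of the 7 ratios reached p = 0.1, the smallest that 3 against 3 libraries allow (0.117 after Benjamini-Hochberg adjustment over the 7), and ITGAM to ITGB2 gave p = 0.3. No ratio could therefore pass 0.05.

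**Figure D3:**
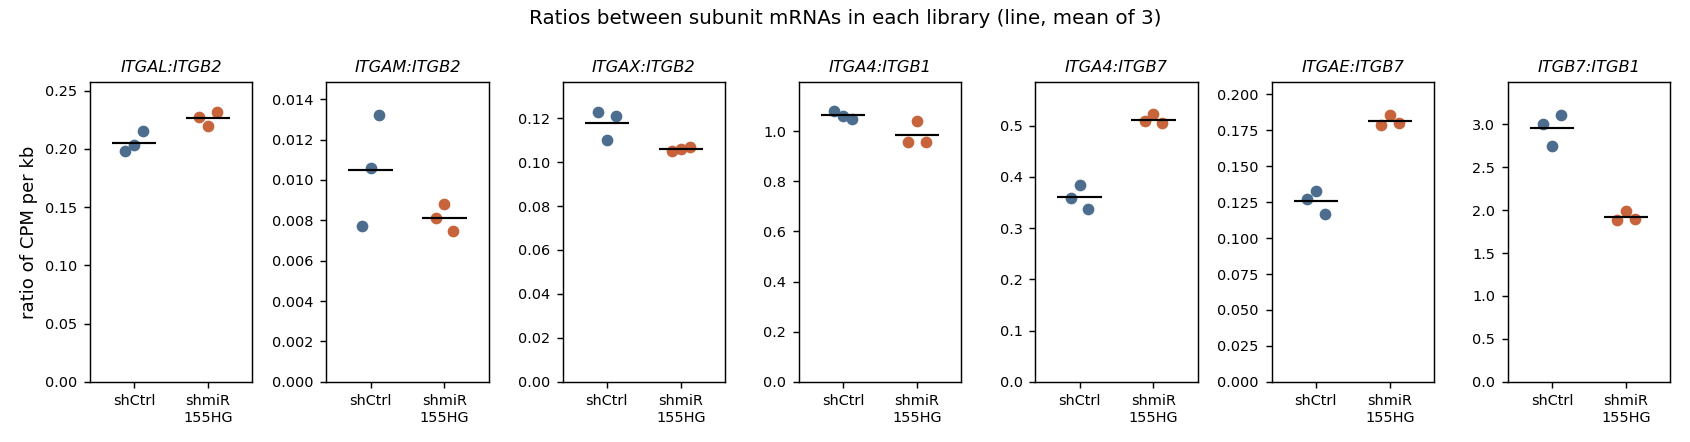
Each panel plots the ratio of 2 subunit mRNAs (CPM per kb over CPM per kb, axis from 0) in each library as a point, with the group mean of 3 as a line. The 3 ratios that hold ITGB7, which share its change, separate the groups by the widest log2 differences, from 0.51 to 0.62 in size.

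The ICAM genes, which code for surface ligands of β2 integrins, did not pass the test. ICAM1 (chr19:10271093-10286615, plus strand), the cytokine-inducible ligand of LFA-1 and Mac-1, had 420.5, 422.5 and 437.8 CPM in shCtrl and 464.1, 442.9 and 459.5 CPM in shmiR155HG libraries. The groups did not overlap, and the level was 6.69% higher, a log2 fold change of 0.09 ± 0.03 (SE), at an edgeR adjusted p of 0.0593. It passed in 3 of 18 alternatives, with DESeq2 (adjusted p = 0.0316), with scaling by total counts (0.0478) and without shCtrl replicate 3 (0.0191). With the GC correction the log2 fold change was 0.06, at an adjusted p of 0.223.

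ICAM3 (chr19:10333776-10339661, minus strand), a ligand of LFA-1 found on resting leukocytes, had 314, 293 and 218 counts in shCtrl and 247, 348 and 22 counts in shmiR155HG libraries. A single library, shmiR155HG replicate 3 at 0.6578 CPM, stood apart from the other 5, which held 5.594 to 9.143 CPM. The log2 fold change was -0.41 ± 0.89 (SE), at an edgeR adjusted p of 0.832, and without that library it was 0.11. ICAM3 was the 1 gene in this library that was under 20% of the lowest other library while the others held at least 5 CPM, and the other libraries had 0 to 2 such genes.

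The antisense gene AC114271.1 shares 1382 exonic bases with ICAM3, and whether the counting used strand is not given in the sources used here, so reads of the pair cannot be told apart. AC114271.1 had 549, 621 and 586 counts in shCtrl and 767, 487 and 785 counts in shmiR155HG libraries. ICAM3 made up 36.4%, 32.1% and 27.1% of the sum of both in shCtrl, and 24.4%, 41.7% and 2.73% in shmiR155HG libraries. The sum itself was 863, 914 and 804 against 1014, 835 and 807 counts, with no library standing apart, and its log2 fold change was 0.10 ± 0.10 (SE), at an edgeR adjusted p of 0.605. This sum was made after the data were seen.

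**Figure D4:**
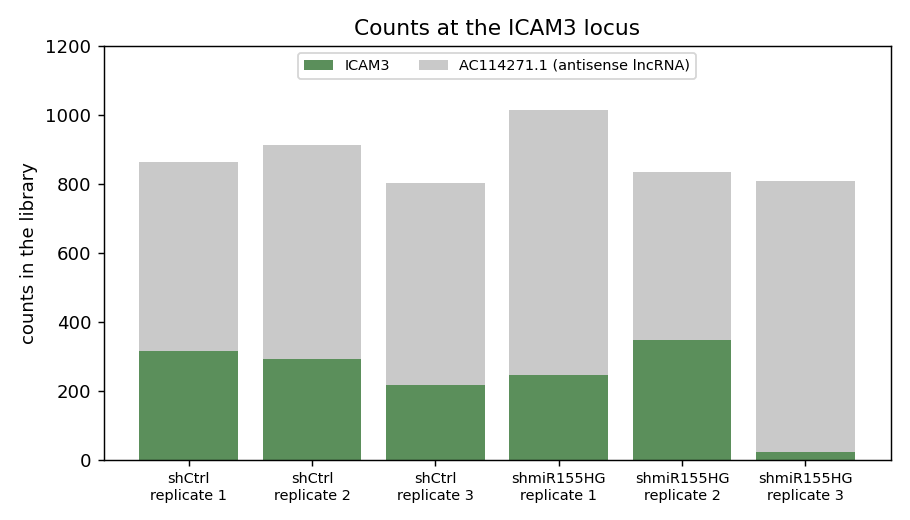
Stacked bars (axis from 0) give the deposited counts of ICAM3 and of its antisense neighbour AC114271.1 in each library. ICAM3 is at 22 counts in shmiR155HG replicate 3, where the sum of both, 807, lies within the range of the other libraries (804 to 1014).

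Beyond the 10 genes, 97 genes of the integrin pathway were grouped by role, of which 68 passed the filter. Of these, 14 were higher and 6 lower (7 and 3 by the study's rule), with a median log2 fold change of 0.06. Over all genes tested, 7.26% were higher and 8.02% lower (4.49% and 3.8% by the study's rule), with a median of 0.00. The same shares stand beside the counts by role that follow. Among 18 other integrin subunits, 7 passed the filter, 1 rose and 1 fell. ITGA6, the α6 chain of laminin receptors, fell from 129.7 ± 5.90 to 72.96 ± 3.06 CPM (log2 fold change -0.83 ± 0.05 SE, adjusted p = 4.66e-12), so the level fell by 43.7%, and ITGB5, which pairs with αV, rose from 35.17 ± 2.65 to 47.62 ± 1.55 CPM (0.44 ± 0.07, adjusted p = 1.24e-04). ITGAV itself, for αV, did not pass the filter, with 0 to 9 counts per library. Both α6 and α4 pair with β1, and ITGB1 rose while ITGA6 fell. Of 12 other ligand genes, 7 passed the filter, of which FN1, for fibronectin, fell by 0.49 on the log2 scale (adjusted p = 5.24e-06) and 0 rose. ICAM2 had a log2 fold change of -0.31 (adjusted p = 0.156).

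Inside-out activation switches integrins to the binding form through RAP1, talin and kindlin. Of 15 such genes tested, 3 rose and 0 fell. These were RAP1A, a RAP1 small GTPase (log2 fold change 0.23, adjusted p = 7.33e-05), RASSF5, which codes for the RAP1 effector RAPL (0.16, adjusted p = 0.00208), and RASGRP2, a RAP1 exchange factor (0.41, adjusted p = 0.0274). The other RAP1 gene, RAP1B, went the other way and did not pass (-0.12, adjusted p = 0.0641 in edgeR). Its shmiR155HG libraries lay wholly below the shCtrl libraries. Talin (TLN1, 0.00, adjusted p = 0.959) and kindlin-3 (FERMT3, 0.06, adjusted p = 0.371), which bind the β tail, did not pass the test. Of 9 genes that restrain integrins, FLNA, whose filamin competes with talin, rose by 0.13, RASA3, which inactivates RAP1, rose by 0.62, and CYTIP, which sequesters cytohesin-1, fell by 0.31. Genes of activation and of restraint were thus both among the higher ones. The call for FLNA was lost after GC correction (adjusted p = 0.193) and without shmiR155HG replicate 2 (0.0585). That for RASGRP2 was lost after GC correction (0.0578), without shCtrl replicate 1 (0.054) or 2 (0.176), and without shmiR155HG replicate 3 (0.213).

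Of 18 genes of the adhesion complex and its signals that were tested, 4 rose and 2 fell. VCL, for vinculin, rose by 0.36, the adaptor NEDD9 by 0.31, the SRC-family kinase LCK by 0.19 and PARVG, a parvin, by 0.17 on the log2 scale. ACTN4, an actin crosslinker, fell by 0.18 and CD47, an integrin-associated surface protein, by 0.19. Of 12 other NK adhesion molecules tested, CD6 (0.61), SPN (0.24), CD44 (0.14) and CD96 (0.11) rose, and CD48, a ligand of the NK receptor 2B4, fell by 0.26. CD2 (0.06, adjusted p = 0.28) and its ligand CD58 (-0.04, adjusted p = 0.838) did not pass the test. The call for CD47 was lost without shmiR155HG replicate 1 (adjusted p = 0.0658) and after GC correction with the replicate block (0.056). That for CD96 was lost without shCtrl replicate 1 (0.152) or 2 (0.11), and without shmiR155HG replicate 1 (0.1), 2 (0.0636) or 3 (0.128).

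Fold changes followed GC content across all genes. The median log2 fold change was -0.05 in the lowest of 4 bins of GC content (3054 genes each) and 0.06 in the highest. ITGB2 (59.5% GC) and ITGB7 (59.4%) fell from the highest bin, and ITGB1 (39.5%) rose from the lowest, against the direction of those medians. ITGAX (56.3%) fell from the bin next to the highest, whose median was 0.02. With the GC correction, the log2 fold changes were -0.28 for ITGB2, -0.48 for ITGB7, -0.41 for ITGAX and 0.24 for ITGB1.

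**Figure D5:**
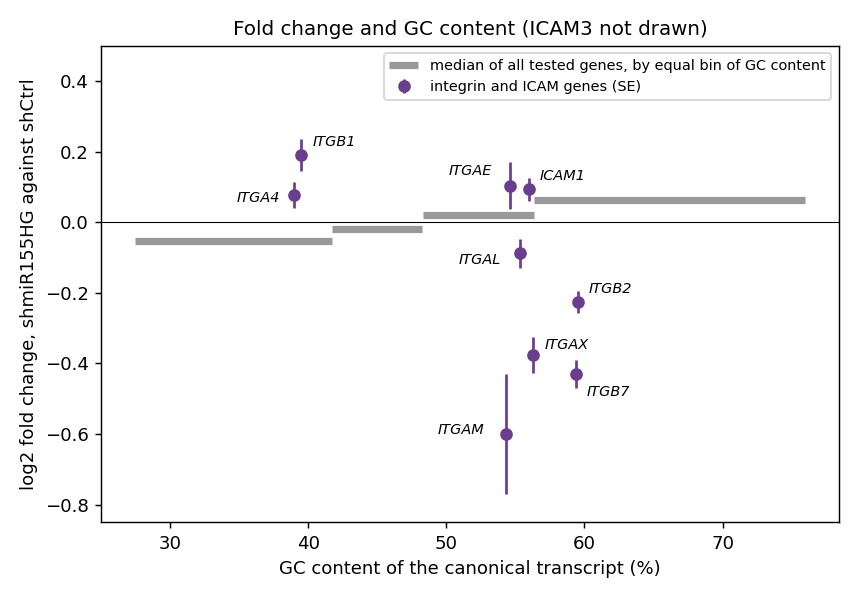
Points give the log2 fold change and SE of 9 of the 10 genes against the GC content of their canonical transcript (%), and grey bars the median over all tested genes in each of 4 equal bins of GC content. ITGB2, ITGB7 and ITGB1 lie on the opposite side of 0 from the bar of their bin.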

How the data were processed

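Poly(A) RNA of 6 libraries (3 shCtrl, 3 shmiR155HG) was sequenced as pairs of 150 bases. As deposited, the values are unnormalized integer gene counts that the authors made with HISAT2 (hg38), StringTie and prepDE.py3. Annotation release, strandedness and the read length given to prepDE.py3 are not given in the sources used here, so whether 1 count is 1 read is unknown. Titles set the groups, since the treatment field of shmiR155HG replicates 2 and 3 names the hairpin differently.

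The test was run with edgeR 4.0.16 under R 4.3.3 (TMM scaling, more than 1 CPM in at least 2 libraries, robust quasi-likelihood test, Benjamini-Hochberg adjustment over 12263 genes). The study's exact test, DESeq2 1.42.0 and limma 3.58.1 were alternatives, with other scalings, filters, GC correction and libraries left out. Replicates differed by more than sampling noise (mean chi-square per gene 7.35 to 10.9, or 3.67 to 5.44 with counts halved). Positions, lengths and GC content came from GENCODE release 44, which matched 36366 of 36601 genes. Ratios had 0.5 added to each count for the log2 test. Members and lists were chosen with earlier results of these data known. Named pathway genes were those with an adjusted p under 0.05 and a mean of at least 5 CPM, up to 4 per list and direction, and genes overlapping a member. TLN1, FERMT3, RAP1B, ITGAD, ITGAV, ICAM2, CD2 and CD58 were named after their values were seen. A marker gene and a sequence are not reported here.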

Additional observations from a re-analysis of the deposited data

How the results depend on the processing

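The count of higher genes among the 10 was 1, and it was 0 by the exact test under the study's rule and by glmTreat (fold change over 1.2), and 2 with DESeq2, total counts, the GC correction and the GC correction with replicate block, and 1 to 2 when each library was left out. The count of lower genes was 4, and it was 1 (ITGB7) by glmTreat, 3 by the exact test, 5 with the GC correction, with or without the replicate block, and 3 to 4 when each library was left out. Among the pathway genes, 14 higher became 7 by the exact test and 1 by glmTreat, and 6 lower became 3 and 2. Over all genes, 890 higher and 984 lower became 106 and 78 by glmTreat, 551 and 466 by the exact test, and 580 and 674 without shmiR155HG replicate 2. ICAM3 was the gene of the 10 whose direction turned, to 0.11 without shmiR155HG replicate 3 and 0.10 with AC114271.1 added, and its values with each library left out ran from -1.009 to 0.1095. With the replicate block, 829 genes were higher and 909 lower. Deviations of same-numbered libraries correlated at -0.01 to 0.02, so no pairing by number was seen. Whether such libraries shared a day or a preparation is not given in the labels. No ratio changed direction in any alternative. ITGAM and ICAM3, the least abundant of the 10, also had the largest SEs.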

Other observations

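Antisense genes at the ICAM1 locus, described after their values were seen, also varied between libraries. AC011511.2, which shares 61 exonic bases with ICAM1 on the other strand, had 0 counts in all 3 shCtrl libraries, and 46, 41 and 0 counts in shmiR155HG replicates 1 to 3. AC011511.5, which shares 815 exonic bases, had 92, 168 and 149 counts in shCtrl and 150, 175 and 209 in shmiR155HG libraries, with a log2 fold change of 0.45 (adjusted p = 0.263 in edgeR).

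ITGB2-AS1, opposite ITGB2, went from 10.4 ± 0.344 to 8.208 ± 0.426 CPM (SD, n = 3), a log2 fold change of -0.34. The groups did not overlap, but the gene did not pass the test (adjusted p = 0.124 in edgeR).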
